A study of Mus musculus with 2 samples.

Results

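The genes described here are 10 markers of intestinal crypt stem cells: Lgr5, Ascl2, Olfm4, Smoc2, Rgmb, Prom1, Hopx, Msi1, Bmi1 and Cd44. They were taken by symbol from a table of 35529 genes, and all 10 were in it. RNA came from C57BL/6 wild-type mice. The first group was colon adenoma of mice that had received AOM (azoxymethane, a DNA-alkylating agent used to start colon tumours) and DSS (dextran sodium sulfate, an irritant that causes colitis). The second was normal colon of mice given neither agent. The RNA of 6 individuals was pooled within each group, so each group is 1 library, called the adenoma pool and the control pool. Age, sex and time after treatment were not given in the labels used here. With 1 library per group there is no replicate spread and no test, and no difference below has a replicate check. Recovered depth was 33174626 reads in the adenoma pool and 29548883 in the control pool, with 24984 and 24718 genes above 0. Intervals beside folds are 95% and cover counting error only.

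Crypts are epithelial pockets in the intestinal wall, and the stem cells at their base renew the lining under Wnt signals from the surrounding tissue. R-spondins bind receptors of the Lgr family and strengthen that Wnt signal, while bone morphogenetic proteins (BMPs) act nearer the surface and favour differentiation. Lgr5, Ascl2, Olfm4, Smoc2 and Rgmb were described as genes of the cycling cells at the crypt base, and Hopx and Bmi1 as genes of slower cycling cells just above them, although both are also expressed more widely. Prom1, Msi1 and Cd44 mark a broader zone of the crypt. In the mouse, Olfm4 is known as a crypt base gene of the small intestine rather than of the colon. In bulk tissue, fewer cells of a type and less RNA per cell cannot be told apart.

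The markers did not all differ in one direction. Values are RPKM, reads scaled for gene length and library size. Of the 10 genes, 8 had more RPKM in the adenoma pool and 2 had less, and for Olfm4, among the 8, this rested on 1 read. The like share over all genes was not counted, so these counts have no background beside them. The receptor Lgr5 and the secreted matrix protein Smoc2 were higher, the BMP co-receptor Rgmb was lower, and the hyaluronan receptor Cd44 was nearly level, with a sign that turns once transcript length is taken into account. Olfm4 was close to undetected in both pools. The highest level in either pool was that of Hopx, followed by Smoc2 and Prom1 in the adenoma pool and by Prom1 and Smoc2 in the control pool. Rgmb ranked 8 of 10 in the adenoma pool and 4 of 10 in the control pool.

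**Figure D1:**
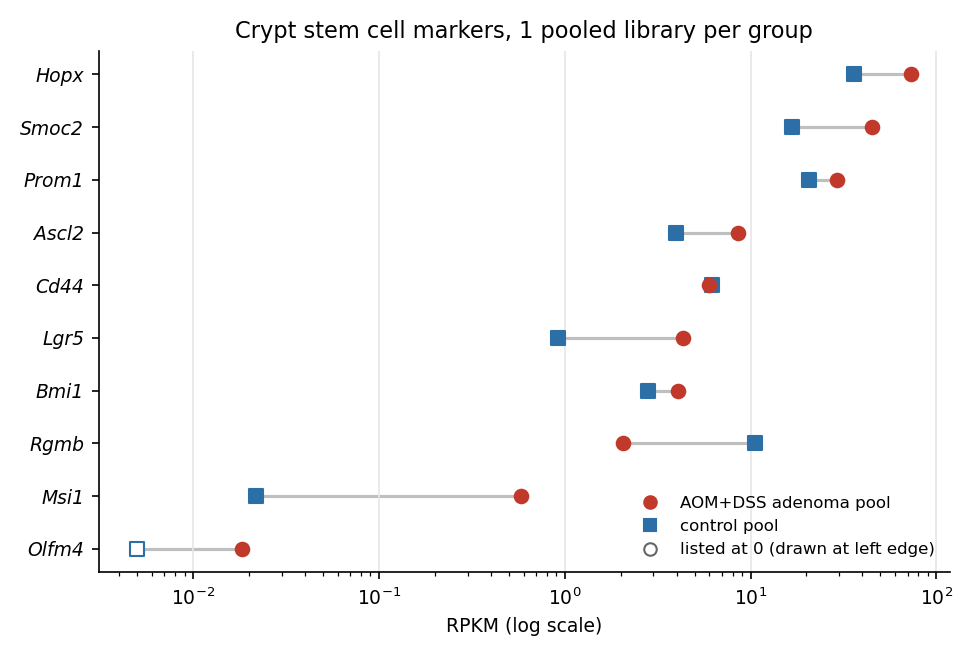
RPKM of the 10 crypt stem cell markers on a log axis, with red circles for the AOM+DSS adenoma pool, blue squares for the control pool and an open symbol for a value of 0, 1 library each. Rgmb lies far to the left in the adenoma pool, at 2.05 against 10.6 RPKM, and Lgr5 far to the right, at 4.34 against 0.920 RPKM.

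A log2 fold change was computed as log2((adenoma RPKM + 1)/(control RPKM + 1)) for 16517 genes, those reaching 1 RPKM in the adenoma or the control pool. This scale understates the change of low genes. Of the 10 markers 8 passed this filter, and Olfm4 and Msi1 did not. At a threshold of 2-fold on that scale, Lgr5 and Smoc2 were higher in the adenoma pool, against 14.0% of all genes, and Rgmb was lower, against 11.0% of all genes. Among the 12910 genes of type mRNA, the type of these markers, 1346 were higher and 1693 lower, so there more genes were lower than higher. On plain RPKM, without the added 1, Ascl2 and Hopx also passed 2-fold, which gives 4 markers higher and 1 lower. The share of all genes past 2-fold was then 18.7% higher and 18.1% lower. The markers just inside and just outside the threshold were Smoc2 at a log2 value of 1.38 (inside) and Hopx at 0.9999 (outside). The median log2 fold change was 0.71 over the 8 markers that passed and 0.56 over all 10, beside -0.02 over the 16517 genes and -0.17 over the 12910 of type mRNA.

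The start sites of 4 markers are shown: Rgmb was lower, Hopx and Ascl2 were near the 2-fold line, and Prom1 differed little. Each sequence runs 5′ to 3′ on the gene's own strand, from 250 bases before to 50 after a RefSeq start site of the build GRCm38.p6, and capitals mark a motif match. Of the 10 markers 7 had a RefSeq promoter entry, with 11 start sites in all, and Lgr5, Smoc2 and Msi1 had none. The markers higher by 2-fold on the log2 scale, Lgr5 and Smoc2, are therefore not shown. Motifs searched were CTTTGA, a core of TCF/LEF sites, on both strands, the E-box CAGCTG, which reads the same on both strands, and the TATA box TATAAA on the gene's strand.
Rgmb, chr17:15831197-15831496, minus strand: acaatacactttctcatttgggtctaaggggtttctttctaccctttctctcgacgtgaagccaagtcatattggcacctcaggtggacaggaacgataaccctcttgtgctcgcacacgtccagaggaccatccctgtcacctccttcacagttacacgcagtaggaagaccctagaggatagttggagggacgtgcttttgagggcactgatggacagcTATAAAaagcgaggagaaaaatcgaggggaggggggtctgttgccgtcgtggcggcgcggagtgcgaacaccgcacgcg
Hopx, chr5:77115074-77115373, minus strand: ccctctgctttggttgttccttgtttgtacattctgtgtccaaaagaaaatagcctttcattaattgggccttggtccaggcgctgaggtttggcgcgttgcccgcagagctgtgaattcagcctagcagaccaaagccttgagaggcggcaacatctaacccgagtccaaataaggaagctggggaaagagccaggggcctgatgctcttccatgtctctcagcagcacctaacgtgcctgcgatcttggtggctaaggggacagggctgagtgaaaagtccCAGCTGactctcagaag
Ascl2, chr7:142969215-142969514, minus strand: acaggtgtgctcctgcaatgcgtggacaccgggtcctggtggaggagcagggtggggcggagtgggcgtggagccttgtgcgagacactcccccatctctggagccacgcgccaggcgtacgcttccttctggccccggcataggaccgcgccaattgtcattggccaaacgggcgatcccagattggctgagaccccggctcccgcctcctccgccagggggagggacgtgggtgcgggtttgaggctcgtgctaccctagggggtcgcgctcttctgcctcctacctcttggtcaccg
Prom1, chr5:44094719-44095018, minus strand: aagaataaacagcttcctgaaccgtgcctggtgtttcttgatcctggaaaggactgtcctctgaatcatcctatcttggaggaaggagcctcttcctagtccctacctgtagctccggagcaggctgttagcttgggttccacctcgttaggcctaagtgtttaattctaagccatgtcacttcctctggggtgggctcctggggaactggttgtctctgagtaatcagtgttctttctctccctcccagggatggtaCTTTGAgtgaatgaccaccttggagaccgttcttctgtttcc
TATAAA began 29 bases before the Rgmb start site shown and also lay in the window of a second, overlapping Rgmb start site, so 2 of 11 marker start sites held it, beside 8.32% of 32851 start sites genome-wide. CAGCTG lay at base 34 after the Hopx start shown, the sole match among the 11, beside 16.3% of all start sites. CTTTGA lay at base 9 after the Prom1 start shown, again the sole match among the 11, beside 16.0% of all. Rgmb, Hopx and Prom1 had more than 1 start site, and the window shown for each is one with a match. The other Hopx and Prom1 windows and the remaining Rgmb window held none. The Ascl2 window held none of these letters, and its GC content was 67.0%, beside a median of 52.7% over all start sites. These matches describe the windows and are not binding sites.

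Lgr5, the R-spondin receptor that names the crypt base stem cell, stood at 4.34 RPKM in the adenoma pool and 0.920 in the control pool. The ratio was 4.71, with an interval of 3.90 to 5.74, and rested on about 678 and 128 reads. In the adenoma pool its level lay above 54.3% of mRNA genes detected there, and in the control pool above 27.4%. Lgr5 (chromosome 10, 115450311 to 115587780, minus strand, GENCODE M21 on GRCm38) overlaps A930009A15Rik on the other strand. That gene was at 0.329 RPKM in the adenoma pool and listed at 0 in the control pool. Whether the reads were counted by strand is not stated in the labels.

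The relatives of Lgr5 did not share one direction. Lgr4, a receptor of the same ligands with wider expression, was at 10.5 RPKM in the adenoma pool and 24.7 in the control pool, 2.35-fold lower (2.22 to 2.49). Lgr6, the third receptor of the family, was at 2.01 and 0.0560 RPKM in the adenoma and control pools, 35.9-fold higher (19.99 to 72.9), with about 11.1 reads in the control pool. Lgr5 made up 25.7% of the summed RPKM of the 3 receptors in the adenoma pool and 3.58% in the control pool. The sum itself was 16.9 RPKM in the adenoma pool and 25.7 in the control pool, and Lgr4 remained the most abundant of the 3 in both.

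Around these receptors, 7 of 10 genes of the R-spondin module (ligands, Lgr4, Lgr6, their partner E3 ligases and Wnt co-receptors) passed the filter, and the median was -0.28. At the 2-fold threshold 1 was higher and 3 were lower, beside 14.0% higher and 11.0% lower over all genes. After subtraction of a trend over transcript length, described further on, 1 was higher and 1 lower, beside 5.66% and 11.3%. Lrp5, at a log2 value of -0.68, and Lgr4, at -0.80, were then short of 2-fold, and Lrp6, at -1.13, was past it. The RPKM of both Wnt co-receptors were lower in the adenoma pool. Lrp6 was at 2.47 RPKM in the adenoma pool and 10.6 in the control pool, and Lrp5 at 9.07 and 23.5. Among the ligands Rspo3, at 1.31 RPKM in the adenoma pool and 1.81 in the control pool, was the most abundant, and Rspo1 was at 0.674 and 0.258. Rspo2 was at 0.00903 and 0.0304 RPKM, and Rspo4 at 0.0763 RPKM in the adenoma pool and listed at 0 in the control pool. Rnf43 and Znrf3, ligases that remove Wnt receptors and are themselves held back by Lgr receptors with R-spondin, stood at 12.6 against 7.18 and at 1.23 against 1.45 RPKM in the adenoma against the control pool.

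Ascl2, a basic helix-loop-helix transcription factor switched on by Wnt signalling and needed by Lgr5 cells, was at 8.57 RPKM in the adenoma pool and 3.99 in the control pool. The ratio was 2.15 (1.81 to 2.56), on about 456 and 189 reads, and the log2 fold change was 0.94. It was therefore past 2-fold on plain RPKM and short of it once 1 was added. Ascl2 lies on chromosome 7 (142966829 to 142969264, minus strand), and its nearest neighbours there are Th, 66827 bases away, and Tspan32, 35643 bases away. Tspan32 was at 3.85 RPKM in the adenoma pool and 1.91 in the control pool, and Th was at 0.0343 and 0.0385 RPKM. Of its family, Ascl4 was at 6.20 RPKM in the adenoma pool and listed at 0 in the control pool, at least 123-fold higher against a floor of 3 reads per library. Ascl3 was listed at 0 in the adenoma pool and at 0.144 in the control pool, which is under the 3-read floor.

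Hopx, a small homeodomain protein that does not bind DNA itself, was the most abundant marker, at 73.0 RPKM in the adenoma pool and 36.0 in the control pool. Its ratio of 2.03 (1.90 to 2.16) rested on about 3052 and 1341 reads, and its level lay above 93.5% of detected mRNA genes in the adenoma pool and 88.8% in the control pool. Its neighbours on chromosome 5 were low: Arl9 was listed at 0 in the adenoma pool and at 0.0842 RPKM in the control pool, and Spink2 was at 0.443 and 0.0553 RPKM.

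Smoc2, a secreted calcium-binding matrix protein of the SPARC family, was at 45.1 RPKM in the adenoma pool and 16.6 in the control pool, a ratio of 2.71 (2.55 to 2.88). With the Smoc2 transcript of 2832 bases, these are 4232.5 and 1393 reads in the adenoma and control pools. A gene that overlaps it, 4930474M22Rik, was listed at 0 in the adenoma pool and at 0.331 RPKM in the control pool. The relative Smoc1 was much lower in level, at 1.37 RPKM in the adenoma pool and 0.823 in the control pool, so Smoc2 made up 97.0% and 95.3% of the pair. Olfm4, also secreted, was at 0.0184 RPKM in the adenoma pool and listed at 0 in the control pool. With the transcript of 1640 bases this is exactly 1 read, and 3 reads would have been 0.0551 and 0.0619 RPKM in the adenoma and control pools. No fold is given, and no difference was detectable at this depth. Of the other olfactomedin genes, Olfm1 was the most abundant, at 2.42 RPKM in the adenoma pool and 4.23 in the control pool, Olfm2 was at 0.296 and 0.488, and Olfm3 was listed at 0 and at 0.00862.

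**Figure D2:**
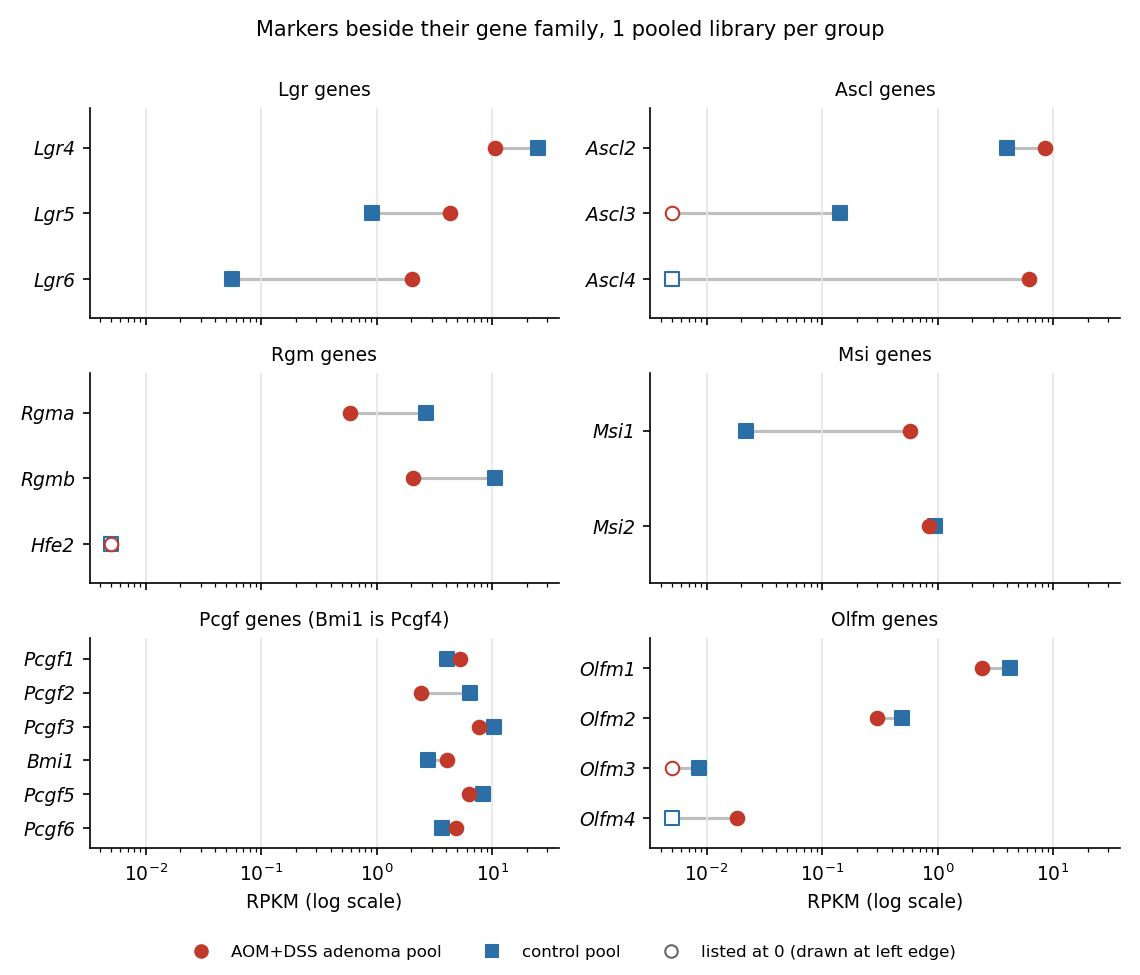
RPKM on log axes of 6 gene families that hold a marker, with red circles for the AOM+DSS adenoma pool, blue squares for the control pool and open symbols for 0, 1 library each. In the Lgr panel Lgr4 lies to the left in the adenoma pool while Lgr5 and Lgr6 lie to the right, and in the Rgm panel both detected genes lie to the left.

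Rgmb, a membrane-anchored co-receptor that binds BMPs and neogenin, was the 1 marker at least 2-fold lower. It stood at 2.05 RPKM in the adenoma pool and 10.6 in the control pool, 5.18-fold lower (4.65 to 5.81), on about 387 and 1789 reads. Its log2 fold change of -1.93 was below that of all but 1.43% of mRNA genes tested. Rgma, its close relative, was also lower, at 0.588 RPKM in the adenoma pool and 2.68 in the control pool, 4.55-fold (3.50 to 6.00). Hfe2, the third family member, which acts in iron control, was listed at 0 in both. The gene beside Rgmb on chromosome 17, Chd1, lies 32049 bases away and was at 2.24 RPKM in the adenoma pool and 5.70 in the control pool.

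Genes that work with Rgmb are neogenin, BMP ligands and receptors, Smads and the Id targets. Of 18 listed 17 passed the filter and the median was -0.58. By 2-fold 3 were higher and 5 lower, beside 14.0% higher and 11.0% lower over all genes. With the length trend subtracted the median was -0.34, with 1 higher, Bmp7, and 2 lower, Bmp2 and Bmp4. The ligand Bmp2 was at 3.37 RPKM in the adenoma pool and 18.1 in the control pool, 5.37-fold lower (4.82 to 6.00), and the receptor neogenin, Neo1, was at 4.38 and 12.3. Bmp4, Bmpr2 and Acvr1 were also lower by 2-fold, but with the length trend subtracted Neo1 was at a log2 value of -0.73, Bmpr2 at -0.43 and Acvr1 at -0.98. Bmp7 was higher, at 13.9 RPKM in the adenoma pool and 4.11 in the control pool, 3.39-fold higher (3.05 to 3.76). The Id genes, which BMP signals switch on, were not lower as a group: Id3 was at 205 RPKM in the adenoma pool and 77.6 in the control pool, Id2 at 49.9 and 20.1, and Id1 at 179 and 136, while Id4 was at 2.26 and 5.41. Id3 and Id2 were past 2-fold, yet short of it with the length trend subtracted, at log2 values of 0.74 and 0.97, and with equal library sums, at 0.99 and 0.88.

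Prom1, a membrane protein of cell protrusions also known as CD133, was at 29.4 RPKM in the adenoma pool and 20.7 in the control pool. The ratio of 1.42 (1.35 to 1.49) was short of 2-fold. Prom2, its relative, was at 0.657 RPKM in the adenoma pool and listed at 0 in the control pool, at least 31.0-fold higher against the 3-read floor, but made up 2.19% of the pair in the adenoma pool. Cd44 was the marker nearest to no difference, at 6.00 RPKM in the adenoma pool and 6.17 in the control pool. Its ratio was 0.972, and the interval of 0.893 to 1.06 spans 1, on about 1117 and 1023 reads. The table has 1 value per gene, so for Cd44 the long epithelial splice forms cannot be told from the standard form.

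Of 11 genes around Cd44 (hyaluronan synthases and hyaluronidases, the receptor Hmmr, the ligand Spp1, splicing factors and the linkers that tie Cd44 to actin) 9 passed the filter. Their median was -0.38, and by 2-fold 1 was higher and 1 lower, shares near the 14.0% and 11.0% over all genes. Spp1, osteopontin, was at 19.5 RPKM in the adenoma pool and 0.379 in the control pool. Ezrin, Ezr, was at 130 and 270 RPKM in the adenoma and control pools. Esrp1, which promotes the epithelial splice forms, was at 29.5 RPKM in the adenoma pool and 59.9 in the control pool, with a log2 value of -0.9998, just short of the threshold. Lyve1, a hyaluronan receptor related to Cd44 and a marker of lymphatic vessels, was at 5.76 RPKM in the adenoma pool and 12.7 in the control pool.

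Msi1, an RNA-binding protein that represses translation of Numb, was at 0.583 RPKM in the adenoma pool and 0.0218 in the control pool. This is about 60.6 reads in the adenoma pool and about 2 in the control pool, so the ratio of 26.7 has an interval of 7.21 to 229. Msi1 stayed under the 1 RPKM filter in both pools and enters none of the 2-fold counts. Msi2, its relative, was at 0.835 RPKM in the adenoma pool and 0.948 in the control pool, a ratio of 0.881 (0.712 to 1.09) whose interval spans 1. Msi1 made up 41.1% of the pair in the adenoma pool and 2.25% in the control pool. Of the genes beside Msi1 on chromosome 5, Cox6a1, 10101 bases away, was at 1032 RPKM in the adenoma pool and 1051 in the control pool, and Pla2g1b, 10444 bases away, was listed at 0 in both.

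Bmi1, also called Pcgf4, is a subunit of Polycomb repressive complex 1, which silences developmental genes. It was at 4.06 RPKM in the adenoma pool and 2.79 in the control pool, a ratio of 1.46 (1.26 to 1.69), on 484.5 and 296.3 reads. Commd3, which ends 787 bases before Bmi1 on the same strand, was at 67.4 RPKM in the adenoma pool and 25.0 in the control pool, a log2 value of 1.39. Transcripts that read through from Commd3 into Bmi1 cannot be told apart in these values. Of 14 other subunits of the complex listed all passed the filter. Their median was -0.05, and by 2-fold 0 were higher and 2 lower, a share near the 11.0% lower over all genes. With the length trend subtracted the median was 0.17 and 1 was lower, Pcgf2, with Phc3 at a log2 value of -0.66. Those 2 were Phc3, at 0.673 RPKM in the adenoma pool and 3.05 in the control pool, and Pcgf2, which can take the place of Bmi1, at 2.41 and 6.44. Cbx8, a chromodomain subunit, was at 3.74 RPKM in the adenoma pool and 2.24 in the control pool, a ratio of 1.67 (1.43 to 1.98). Phc2, the most abundant subunit, was at 19.0 RPKM in the adenoma pool and 18.5 in the control pool. Bmi1 made up 13.3% of the summed RPKM of the 6 Pcgf genes in the adenoma pool and 7.81% in the control pool. Pcgf3 was the most abundant of the 6 in both pools, at 7.66 and 10.3 RPKM in the adenoma and control pools. Pcgf1, Pcgf5 and Pcgf6 lay between 4.86 and 6.32 RPKM in the adenoma pool and between 3.68 and 8.40 in the control pool. Of 18 relatives of the markers 12 passed the filter, with a median of -0.37. By 2-fold 2 were higher and 4 lower, beside 14.0% higher and 11.0% lower over all genes.

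Other genes reported for the crypt base or its progenitors also differed in both directions. Of 24 listed 21 passed the filter and the median was -0.52. Past 2-fold were 4 in each direction, beside 14.0% higher and 11.0% lower over all genes. With the length trend subtracted the median was -0.09, with 3 higher and 5 lower, since Clu was then at a log2 value of 0.65 and Krt19 at -1.25. With equal library sums Axin2, at 0.72, and Clu, at 0.62, were short of 2-fold. Sox9, at -1.01, Ephb2, at -1.09, Soat1, at -1.12, and Krt19, at -1.13, were then past it on the lower side. Tnfrsf19 and Mex3a stayed higher by 2-fold, and Aldh1a1, Aqp4, Lrig1 and Myb stayed lower. The median of the list was then -0.76. The Wnt target Tnfrsf19, also called Troy, was at 6.595 RPKM in the adenoma pool and 0.671 in the control pool, 9.83-fold higher (7.84 to 12.6). Mex3a, an RNA-binding protein of a slowly cycling fraction of Lgr5 cells, was at 3.17 RPKM in the adenoma pool and 0.630 in the control pool, and the 2 others past the line were Axin2 and Clu. Aldh1a1, a retinal dehydrogenase, was at 4.78 RPKM in the adenoma pool and 18.8 in the control pool, 3.92-fold lower (3.49 to 4.41). Aqp4, a water channel, was at 13.7 and 45.2 RPKM in the adenoma and control pools, 3.30-fold lower (3.15 to 3.46), and Lrig1 and Myb were the others. Krt19, a keratin of crypt and surface cells, was the most abundant, at 1950 RPKM in the adenoma pool and 3245 in the control pool.

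**Figure D3:**
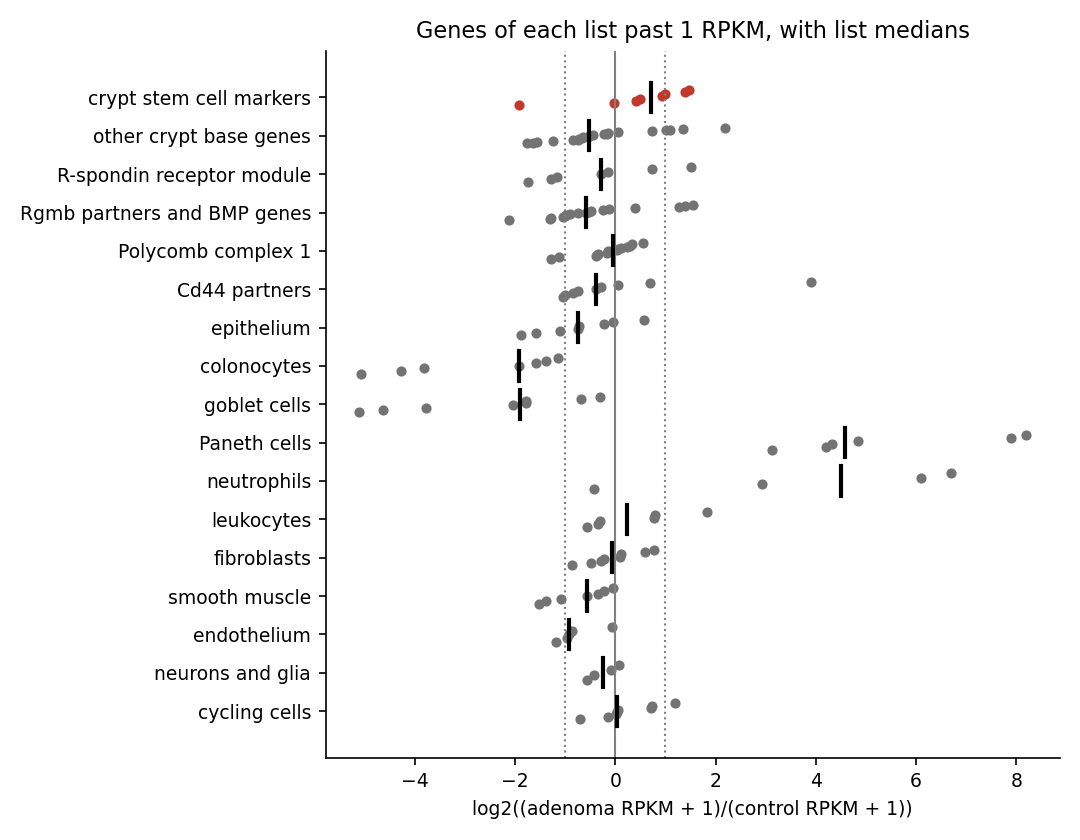
Log2 fold change of each gene past 1 RPKM in the lists used here, 1 dot per gene with a black bar at the list's median, where positive values are higher in the AOM+DSS adenoma pool and dotted lines mark 2-fold. The crypt stem cell markers, in red, run from -1.93 to 1.48, and the lists of colonocyte, goblet cell, smooth muscle and endothelial markers lie wholly below 0.

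Marker genes of the cell types in the tissue differed between the pools to unequal degrees. Over all genes, 14.0% were higher and 11.0% lower by 2-fold. The epithelial markers were abundant in both, with summed RPKM of 6172 in the adenoma pool and 9381 in the control pool, and 0 of 8 at least 2-fold higher and 3 lower. Of 7 absorptive colonocyte markers 7 were lower, with sums of 565 and 2392 RPKM in the adenoma and control pools. Of 8 goblet cell markers 6 were lower, with sums of 2051 and 9252 RPKM. Of 6 Paneth cell markers 6 were higher, with sums of 1260 RPKM in the adenoma pool and 52.0 in the control pool, where Defa24 and Defa5 were listed at 0. The cycling cell markers had 1 of 8 higher, Cdk1, a share near that over all genes, and sums of 196 RPKM in the adenoma pool and 150 in the control pool. Of these, Pcna gave 84.8 and 51.3 RPKM. The 2 with less RPKM in the adenoma pool were Mki67, at 7.73 and 13.2 in the adenoma and control pools, and Mcm2, at 21.1 and 23.4. Mki67 was 1.71-fold lower (1.62 to 1.79), and with the length trend subtracted it was at a log2 value of -0.09. The median of the 8 was 0.04, and with equal library sums it was -0.32, with Cdk1 short of 2-fold at 0.81. None of these lists' part in the differences of the stem cell markers was tested.

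Some markers are also made outside the epithelium, so the lists of other cells are given beside them. The shares over all genes, 14.0% higher and 11.0% lower by 2-fold, stand beside these lists too. For Olfm4, which mouse neutrophils can express, 8 neutrophil markers had 3 higher and 0 lower among 4 that passed the filter, with sums of 390 RPKM in the adenoma pool and 115 in the control pool, where Mpo and Ngp were listed at 0. Ly6g, the most abundant of them, was at 83.2 RPKM in the adenoma pool and 112.5 in the control pool, and with the length trend subtracted it was lower by 2-fold, at a log2 value of -1.35. The 3 that were higher were S100a8, S100a9 and Retnlg. For Cd44, which leukocytes carry, 6 leukocyte markers had 1 higher, Cd52 (0 with the length trend subtracted), a share near the 14.0% over all genes. Their sums were 279 and 133 RPKM in the adenoma and control pools, of which Cd52 gave 159 and 43.9. Of the 6, 3 had more RPKM in the adenoma pool and 3 had less. Ptprc, the marker that defines leukocytes, was at 3.70 and 5.95 RPKM. For Smoc2 and Hopx, 8 fibroblast markers had 0 higher and 0 lower, with 4 at more RPKM in the adenoma pool, 4 at less and a median of -0.06. Their sums were 460 RPKM in the adenoma pool and 383 in the control pool, of which Dcn alone gave 250 and 145. The 7 smooth muscle markers had 0 higher and 3 lower and sums of 1193 and 1620 RPKM in the adenoma and control pools. For Msi1, which neural cells express, 7 markers of enteric neurons and glia had 0 higher and 0 lower among 4 that passed, with sums of 10.6 RPKM in the adenoma pool and 13.3 in the control pool. The 5 endothelial markers had 1 lower, Kdr, and sums of 18.5 and 34.5 RPKM. With the length trend subtracted, 5 epithelial, 8 goblet cell, 2 smooth muscle and 0 endothelial markers were lower by 2-fold and 1 fibroblast marker, Dcn, was higher. The trend took Dcn at 4692 bases, its longest transcript, while its longest coding transcript has 1758 bases, so this call depends on the length chosen. With equal library sums the endothelial markers Pecam1, at -1.21, Cdh5, at -1.19, Kdr, at -1.40, and Tek, at -1.15, were lower by 2-fold. Emcn, at -0.38, was not. The medians were then -1.19 for endothelial, -1.14 for epithelial, -0.97 for smooth muscle and -0.44 for fibroblast markers. The part of these cells in the markers' values was not tested.

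Scale and transcript length bear on how far each marker stood from 2-fold. RPKM summed to 828667 in the adenoma pool and 629215 in the control pool. With the libraries rescaled to equal sums, the median over all genes shifts to -0.34. Lgr5 was then at 1.16 and Rgmb at -2.19, Smoc2 was short of 2-fold at 0.9965, and Prom1 and Bmi1 were at 0.10 and 0.11. Long transcripts had lower values in the adenoma pool than short ones: among mRNA genes the median was 0.86 in the shortest of 20 length bins and -0.79 in the longest. After this trend was subtracted Lgr5 was at 1.79, Smoc2 at 1.54 and Rgmb at -1.49, and these remained the 3 markers past 2-fold, against 5.66% of genes higher and 11.3% lower. The short genes Ascl2 and Hopx were then at 0.44 and 0.34, and Cd44 was positive, at 0.39.

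**Figure D4:**
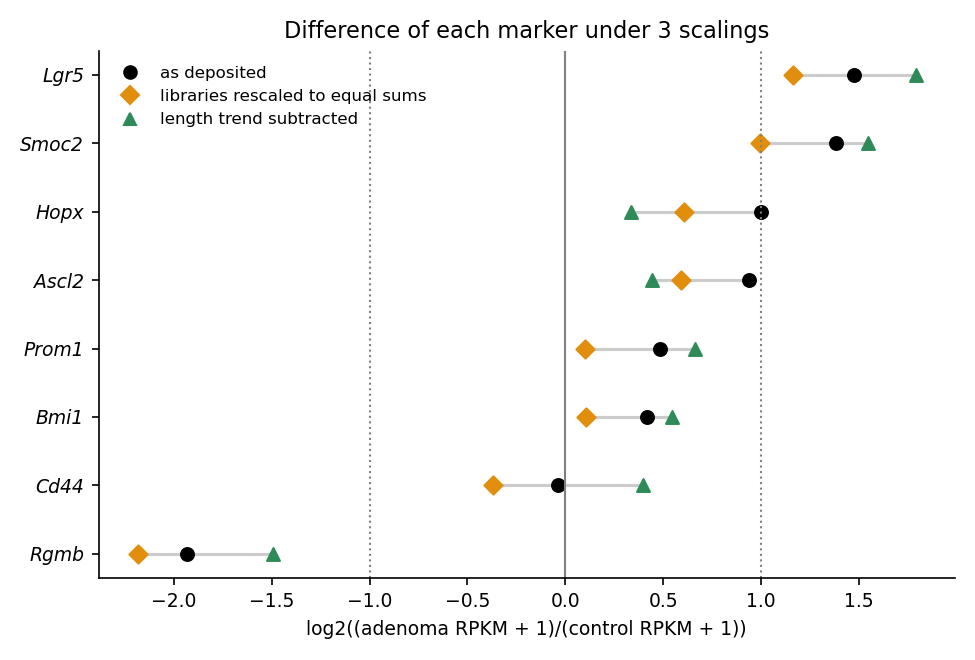
Log2 fold change of the 8 markers past 1 RPKM with values as deposited (black circles), libraries rescaled to equal sums (orange diamonds) and the trend over transcript length subtracted (green triangles), where positive values are higher in the AOM+DSS adenoma pool and dotted lines mark 2-fold. Lgr5 stays above 1 and Rgmb below -1 under all 3, and Cd44 crosses 0.

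**Figure D5:**
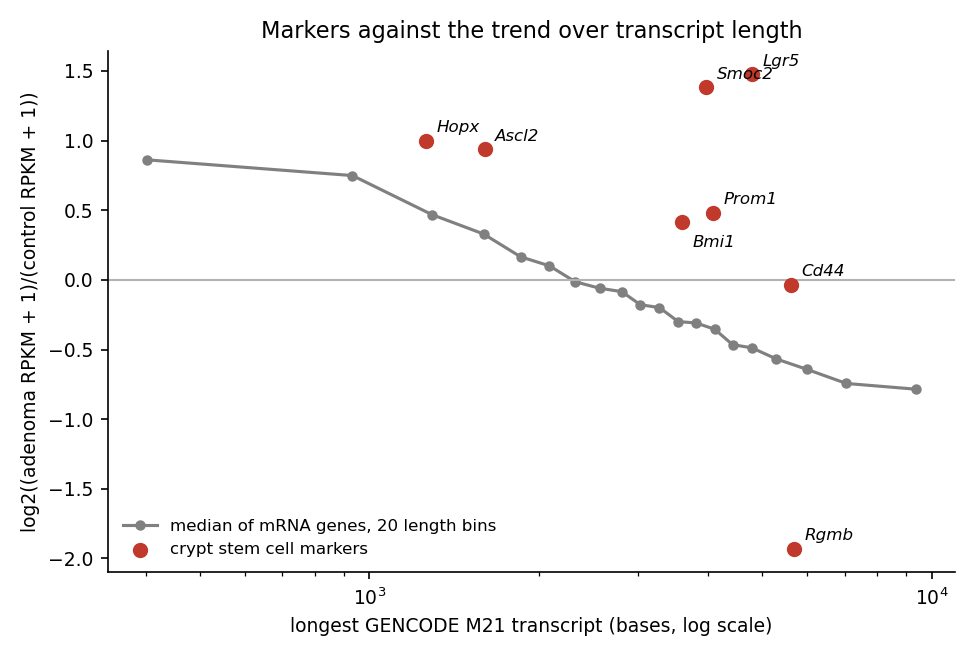
Log2 fold change of the 8 markers (red) against the length of their longest transcript on a log axis, with the median of mRNA genes in 20 length bins (grey line), where positive values are higher in the AOM+DSS adenoma pool. Of the 8 markers, 7 lie above the line and Rgmb lies below it.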

How the data were processed

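The authors deposited 1 table of RPKM values with 1 column per pool, per the file headers. RNA was extracted with Trizol and pooled from 6 individuals per group, per the labels' protocols. The series text names Proton sequencing, and the labels' protocols name Illumina library preparation. The submitters' processing notes name the build GRCh37, a human assembly, although the symbols are those of mouse. The aligner, the counting method and strand use are not given in the sources used here.

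Read totals were recovered from short single-exon RNAs of known RefSeq length, where RPKM times length steps by a fixed amount per read. They came out at 33174626 reads for the adenoma pool and 29548883 for the control pool, and 72.0% of 200 and 70.9% of 182 such genes were then within 0.01 of a whole read. Reads per gene used a GENCODE M21 coding transcript at which both pools came out within 0.001 of whole, split-in-2 or split-in-3 reads, found for Olfm4, Smoc2 and Bmi1, and otherwise the longest coding transcript, so that the other reads and intervals are approximate. Intervals are exact Clopper-Pearson at 95%, for counting error only. The length trend was a median over 20 bins, with a length found for 93.9% of genes tested. That length was the longest GENCODE M21 transcript of any type. For some genes it exceeds the transcript used for reads, as for Smoc2, at 3972 against 2832 bases. The design has no replicates, so no test was run. All 10 markers and their listed relatives were named, and from other lists the 3 largest differences and the most abundant gene. A few more genes were named after their values were seen: Neo1, Bmp4, Bmpr2, Acvr1, Id2, Id4, Axin2, Mex3a, Clu, Lrig1, Myb, Sox9, Ephb2, Soat1, Rspo1, Rspo2, Rspo3, Rspo4, Rnf43, Znrf3, Ptprc, Defa5, Mpo, Ngp, Mki67, Mcm2 and the neighbours. Not every gene the rule picks from the cell type lists is named. Some genes of the lists are not reported here and were left out of the list counts. The markers and lists were chosen with earlier results of these data known. Python 3.11.15 with numpy 2.4.6, pandas 2.3.3 and scipy 1.17.1 was used. The 2-fold calls at the main setting and the counting intervals were tested on simulated data with counting error only. Read total recovery, the choice of transcript, the rescalings and the length trend were not tested in this way.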

Additional observations from a re-analysis of the deposited data

How the results depend on the processing

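No paired analysis was possible because each group is 1 library, and for the same reason no replicate could be left out. The alternatives bear on how many markers pass 2-fold. A change of pseudocount cannot turn a marker's sign, and mRNA genes alone leaves its value as it was. Only the rescalings and the length trend could turn a direction, and they did so for Cd44 alone. Over all alternatives the log2 values ran as follows: Lgr5 0.66 to 2.24, Smoc2 1 to 1.54, Ascl2 0.44 to 1.10 and Hopx 0.34 to 1.03. Prom1 ran from 0.10 to 0.66, Bmi1 from 0.11 to 0.55, Rgmb from -2.37 to -1.15 and Cd44 from -0.37 to 0.39. From 2 markers higher and 1 lower, the count of markers higher became 4 with a pseudocount of 0.1, with no pseudocount (added after seeing the data) and at 1.5-fold, 3 with the median ratio, and 1 with a pseudocount of 5, a 5 RPKM filter or equal sums. At 4-fold, with 1 still added to each RPKM, it was 0 higher and 0 lower. On plain RPKM the ratio of Lgr5 was 4.71, and Rgmb was 5.18-fold lower. The median of the markers was 0.51 with a pseudocount of 5, 0.35 at equal sums and 0.49 after the length trend was subtracted.

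Over all genes, 2316 were higher and 1809 lower (56.1% of calls higher). A pseudocount of 0.1 gave 3000 and 2858, no pseudocount 3082 and 2992, and a pseudocount of 5 gave 1309 and 654 (66.7% higher). Equal sums gave 1208 and 3158 (27.7%), 1.5-fold 4245 and 4067, 4-fold 333 and 179, the length trend 877 and 1750 (33.4%), and mRNA genes alone 1346 and 1693 (44.3%). Over the 6 lists of relatives and partners, 10 genes were higher and 17 lower. A pseudocount of 5 gave 6 and 9, equal sums 6 and 26, 4-fold 3 and 1, the length trend 7 and 12, and 29 were lower at 1.5-fold. Depth limits Olfm4, with 1 read, and Msi1, with about 2 reads in the control pool.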
